A study of Drosophila melanogaster with 6 samples.

Results

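The Jonah genes of Drosophila melanogaster encode small serine proteases of the chymotrypsin fold. They are made by midgut cells and secreted into the gut lumen, where they help to digest dietary protein. Like other secreted digestive proteases they are made with a signal sequence and enter the secretory route at the endoplasmic reticulum. Many of them lie next to each other in small clusters, and the small roman numeral that ends such a symbol names the copy in the cluster. CrebA is a bZIP transcription factor known for its action on genes of the secretory route in embryonic gland and epidermal cells.

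The 10 Jonah symbols described here each had 1 probe set in the platform annotation, so that 10 probe sets of the 18769 on the array other than Affymetrix controls were followed. These were Jon25Bi, Jon25Bii, Jon25Biii, Jon44E, Jon65Ai, Jon65Aiii, Jon65Aiv, Jon66Ci, Jon66Cii and Jon74E. All 10 gene IDs carry the same symbol in the RefSeq gene table of Release 6, and all 10 probe set names have the plain ending that Affymetrix uses for probes designed to a single target. The annotation holds 3 more Jonah symbols, Jon65Aii, Jon99Ci and Jon99Fi, which are treated below with other proteases. The family was picked with the difference between the genotypes in view, Jon44E being low and Jon25Bi high in the mutants. The member values are therefore a description. No member p-value is printed, and a call says only that a probe set passed the same threshold as any other on the array.

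The study hybridised total RNA of whole embryos to Affymetrix expression arrays, 3 for wild type and 3 for CrebA null mutants. Both genotypes were collected for 8 h, aged for a further 11 h and passed through a COPAS biosorter, and the mutants were taken for lacking the GFP of the balancer chromosome. The labels start the stages at 11 and end them at 15 in one field and 17 in another, and they give no strain for either genotype, so that strain and the CrebA mutation cannot be told apart. Expression is given as RMA values in log2 units, in which a difference of 1 is a doubling, and levels of different probe sets are not comparable.

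The number of arrays limits the precision, and nothing in the labels says that replicates are separate collections, so the spread between them may be technical. Array means were 6.39 throughout. Medians ran from 5.47 to 5.52 on wild-type arrays and from 5.53 to 5.58 on CrebA null arrays, so they did not overlap between the genotypes. Replicate 2 stood apart in both genotypes: over all probe sets the difference between 2 arrays of a genotype had an SD of 0.390 to 0.524 where replicate 2 was one of them, and of 0.251 (wild type) and 0.226 (CrebA null) for replicates 1 and 3. The highest of 17 Tag controls, probe sets for sequences foreign to the fly, marked the background of each array and lay between 4.71 and 5.28. In whole embryos, fewer cells of a type and less RNA per cell cannot be told apart.

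The family did not move as a block. Jon44E was 4.65-fold lower in CrebA null embryos, while Jon25Bi, Jon25Bii, Jon25Biii, Jon65Aiii and Jon66Ci were between 1.30-fold and 2.22-fold higher. Jon65Ai, Jon65Aiv, Jon66Cii and Jon74E had overlapping values in the 2 genotypes, with differences between -0.22 and 0.09 (log2). At an adjusted p under 0.05 (limma, over all 18769 probe sets), Jon25Bi and Jon66Ci were called higher and Jon44E lower. That is 3 of 10 members called where 2.33% of all probe sets were, or 2 higher against 1.42% and 1 lower against 0.911%. Fitted with the replicate block, that is, with the replicate number as a term, 4 of 10 were called higher, adding Jon25Biii and Jon65Aiii, against 9.53% of all probe sets, and Jon44E remained the 1 called lower, against 7.15%. Of the 6 fits that each left out 1 array, the one without wild type replicate 2 called Jon25Bi higher, the one without wild type replicate 3 called Jon44E lower, and the other 4 called none. Values of the genotypes did not overlap for 6 members, 5 of them higher in the mutants (8.71% of all probe sets) and 1 lower (10.2%), where 18.9% of all probe sets did not overlap in either direction. Nothing is read from these shares, since the family was chosen on this contrast.

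**Figure D1:**
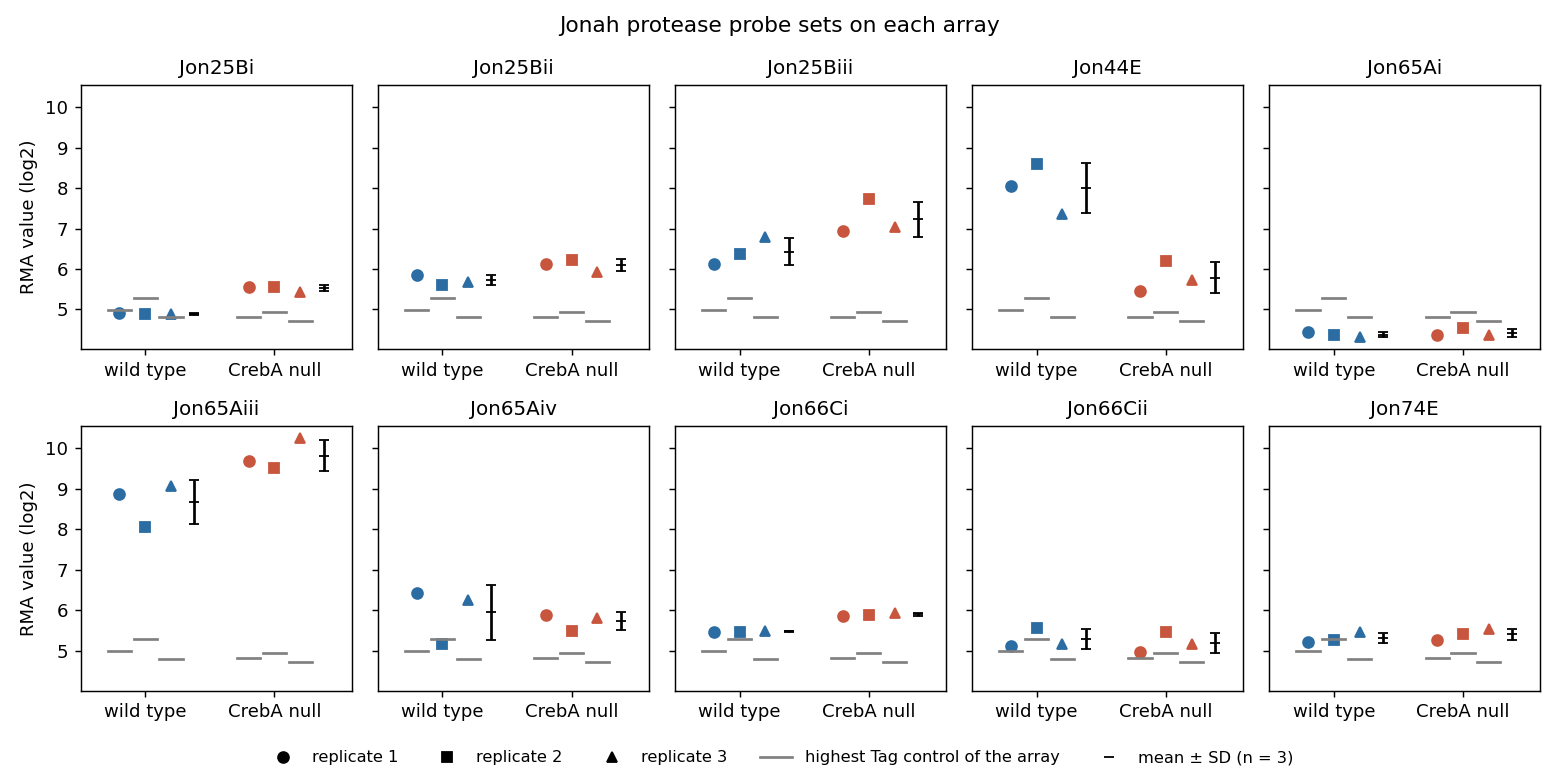
Each panel plots the RMA value (log2) of 1 Jonah probe set on the 3 wild-type (blue) and 3 CrebA null (red) arrays. Symbols mark the replicate, grey dashes the highest Tag control of that array, and black bars the mean ± SD. Jon44E lies at 7.36 to 8.60 in wild type and 5.45 to 6.19 in the mutants, while Jon65Ai lies below the grey dashes on all 6 arrays.

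Jon44E was the member with the greatest difference. Its values were 8.06, 8.60 and 7.36 on wild-type arrays 1, 2 and 3 and 5.45, 6.19 and 5.72 on CrebA null arrays 1, 2 and 3. The lowest wild-type array lay above the highest mutant array, and every array lay above its Tag controls, so the probe set still read above background without CrebA. Whether other transcripts add to that signal was not tested. The mean was 8.01 ± 0.62 in wild type and 5.79 ± 0.37 in the mutants (SD, n = 3 each), a difference of -2.22 (SE 0.35). Between arrays of the same replicate number the difference was -2.61, -2.41 and -1.64. In both genotypes replicate 2 gave the highest value, 0.88 above the mean of the other two in wild type and 0.60 above it in the mutants. Without replicate 2 of both genotypes the difference was -2.12 and still called. Leaving out any single array kept the difference between -2.54 and -1.92, but it was called only without wild type replicate 3. That is 1 of 6 such fits. Whether probes of this gene differ in sequence between the strains used was not tested.

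Among the members with higher mutant values, Jon65Aiii had the greatest difference. It read 8.87, 8.06 and 9.08 in wild type and 9.68, 9.53 and 10.25 in the mutants. All 3 mutant arrays lay above all wild-type arrays, and the replicate 2 array was the lowest in each genotype. The means were 8.67 ± 0.54 and 9.82 ± 0.38 (SD, n = 3 each), a difference of 1.15 (SE 0.32) that was not called, although the 3 same-number differences were 0.81, 1.47 and 1.17. Its SE with the replicate block was 0.13, and there it was called. It was also called in a fit with array weights, where its difference was 0.91.

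The 3 members of the 25B cluster were all higher in the mutants without overlap. Jon25Bi read 4.91, 4.88 and 4.88 in wild type against 5.56, 5.56 and 5.44 in the mutants. The wild-type values differed by less than 0.1, and 2 of them lay within the Tag controls, as none of the mutant values did. The difference was 0.63 (SE 0.08), and since part of the wild-type signal may be background, the 1.55-fold ratio is not a measure of how much transcript was gained. Jon25Bii read 5.85, 5.62 and 5.68 against 6.12, 6.22 and 5.93, a difference of 0.37 (SE 0.11) that was called neither with nor without the block. Jon25Biii read 6.13, 6.38 and 6.79 against 6.93, 7.73 and 7.03. Here the gap between the highest wild-type and the lowest mutant array was small beside the spread within each genotype. The difference was 0.80 (SE 0.27), with same-number differences of 0.80, 1.35 and 0.24.

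Jon66Ci had the tightest replicates of the family. It read 5.47, 5.47 and 5.49 in wild type and 5.86, 5.89 and 5.93 in the mutants, all above the Tag controls. The difference of 0.42 (SE 0.07) was small and uniform, with 0.39, 0.43 and 0.44 between same-number arrays. It was called in 3 of 9 other settings, and it lost the call under the filter on dim probe sets, each of the 3 other scalings and the trended prior, and whenever an array was left out.

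The remaining 4 members were not called in any fit that was run. Jon65Aiv read 6.42, 5.17 and 6.27 in wild type and 5.89, 5.49 and 5.81 in the mutants. The 2 ranges overlapped because wild type replicate 2 was low, at a value within its Tag controls. The difference was -0.22 (SE 0.34), -0.61 without wild type replicate 2 and 0.02 without wild type replicate 1. Jon66Cii read 5.12, 5.57 and 5.17 against 4.97, 5.45 and 5.17, with replicate 2 highest in both genotypes and a difference of -0.09 (SE 0.17). Jon74E read 5.22, 5.26 and 5.45 against 5.27, 5.41 and 5.53. Its difference was 0.09 (SE 0.11), with wild type replicate 2 within the Tag controls. Jon65Ai lay between 4.31 and 4.54 on all 6 arrays, within the Tag controls on each, so these data hold no measurable level of it.

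**Figure D2:**
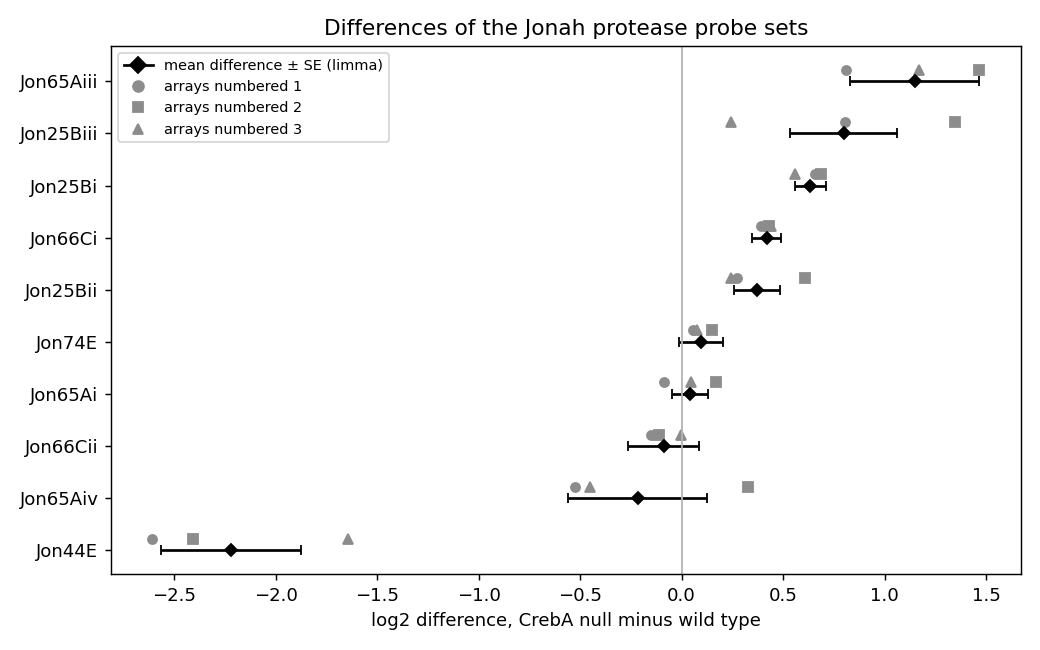
The plot orders the 10 Jonah probe sets by their log2 difference, CrebA null minus wild type (x axis). Black diamonds are the limma difference with its SE, and grey symbols the difference between the 2 arrays of 1 replicate number. Jon44E stands alone at -2.22, and the others run from -0.22 to 1.15.

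Ordered by difference, the members ran from Jon65Aiii (1.15) through Jon25Biii, Jon25Bi, Jon66Ci, Jon25Bii, Jon74E, Jon65Ai, Jon66Cii and Jon65Aiv to Jon44E (-2.22). Of the 9 steps between neighbours in this order, 6 were no larger than the sum of the 2 SEs. The 3 larger steps lay between Jon25Bi and Jon66Ci (0.21), between Jon25Bii and Jon74E (0.28) and between Jon65Aiv and Jon44E (2.00). Differences were positive for 7 members and negative for 3, with a median of 0.23 against -0.030 over all probe sets. The sign of Jon65Ai turned under 2 scalings, those on the array median and on ribosomal protein genes, and the sign of the other 9 held under all 3 scalings. Of the 10 members, 6 were above the Tag controls on all 6 arrays, 3 on some and 1 on none, while 52.4% of all probe sets were above them on all 6.

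Replicate 2, which stood apart on the whole array, moved the members unequally. In wild type it departed from the mean of replicates 1 and 3 by -1.17 for Jon65Aiv, -0.91 for Jon65Aiii and 0.88 for Jon44E. The size of this departure had a median of 0.366 over the 9833 probe sets above the Tag controls on all arrays, and 5.63%, 10.7% and 11.5% of these departed by more. In the mutants the departures were -0.36, -0.44 and 0.60 for the same genes, of the same signs, and 0.75 for Jon25Biii, which in wild type departed by -0.08. For Jon25Bi and Jon66Ci replicate 2 lay within 0.07 of the mean of replicates 1 and 3 in both genotypes. What replicate 2 stands for in the collections was not tested.

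Cluster position was set beside the differences after the values had been seen, with the order of protein-coding genes taken from RefSeq Release 6. In the 25B cluster, Jon25Biii, Jon25Bii and Jon25Bi follow one another on chromosome arm 2L. The genes before them, betaggt-I and jet, and after them, Marcal1, had differences of -0.07 (SE 0.25), -0.03 (SE 0.16) and -0.06 (SE 0.10), beside 0.80, 0.37 and 0.63 for the 3 proteases, of which Jon25Bi alone was called without the block. The difference between the cluster and its neighbours was not tested. The 65A cluster on arm 3L holds, in order, yip7, CG6462, Jon65Aiv, Jon65Aiii, Jon65Aii and Jon65Ai. There Jon65Aiii alone had a mutant range clear of the wild-type range, and its direct neighbours differed by -0.22 (Jon65Aiv, SE 0.34) and 0.05 (Jon65Aii, SE 0.11). Jon65Aii and CG6462 lay within the Tag controls on all 6 arrays, so their values hold no measured change. yip7, a Jonah-like gene at the edge of that cluster, had a difference of -0.01 (SE 0.32). In the 66C pair, also on 3L, Jon66Ci was higher while Jon66Cii beside it was not, and ImpE1 on the other side had a difference of 0.24 (SE 0.58).

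Jon44E and Jon74E stand apart from the clusters. The genes next to Jon44E on arm 2R were CG30355, with a difference of 0.11 (SE 0.08), and CG8586, with 0.44 (SE 0.28), and neither was called. CG30355 lay within the Tag controls on all 6 arrays, so its value holds no measured change. CG8586 was called higher with the replicate block, against the direction of Jon44E. Next to Jon74E, Nedd4 and CG7542 differed by -0.01 (SE 0.15) and -0.17 (SE 0.09), the latter within the Tag controls on all 6 arrays.

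**Figure D3:**
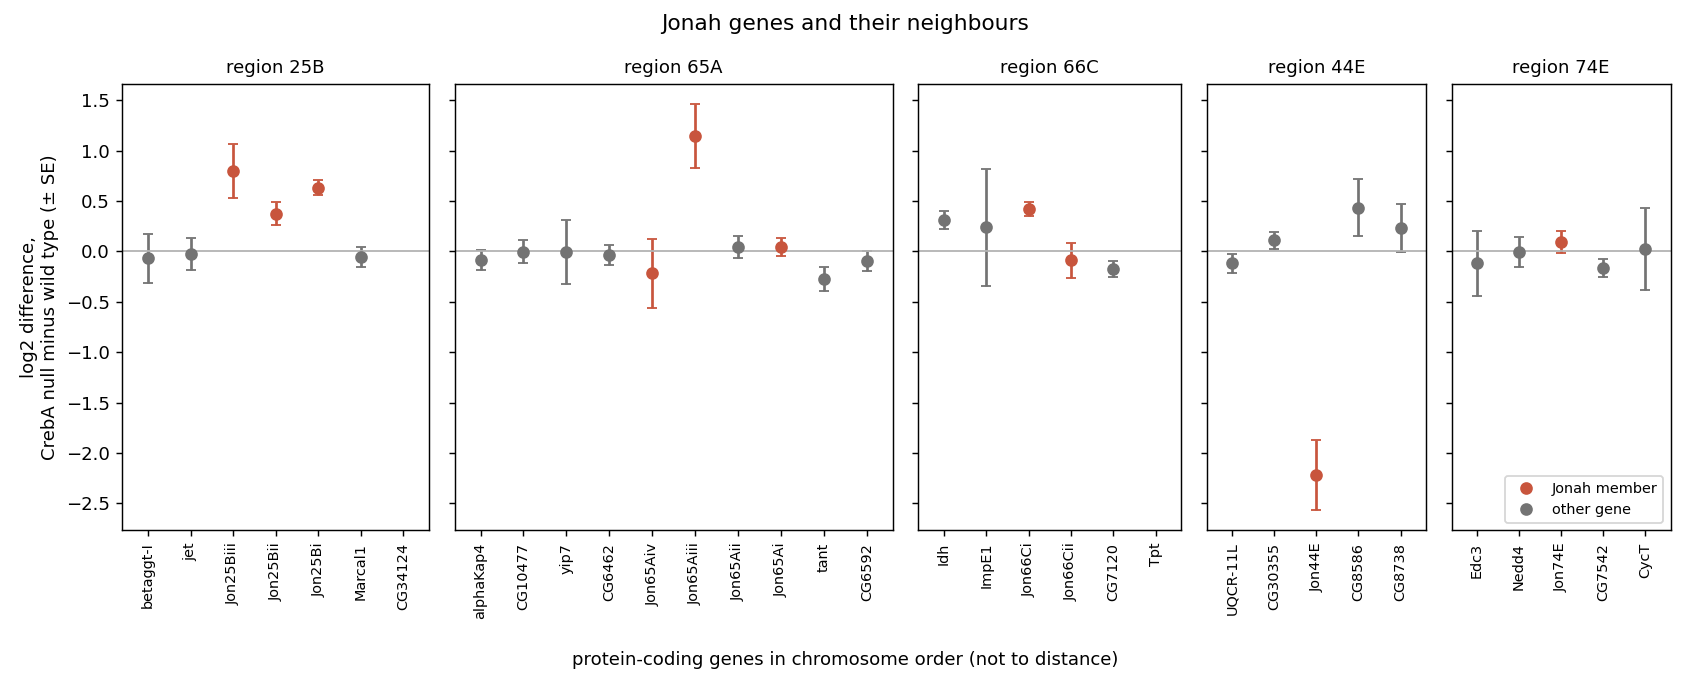
Each panel shows protein-coding genes in RefSeq order (x axis, not to distance) with the log2 difference, CrebA null minus wild type, and its SE (y axis); a gap means no probe set with 1 gene symbol. Jonah members are red. The 3 members at 25B lie at 0.37 to 0.80 between neighbours near 0, at 65A Jon65Aiii alone stands out at 1.15, and Jon44E lies at -2.22. CG30355, Jon65Aii, CG6462 and CG7542 lay within the Tag controls on every array.

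Over the 6 arrays the members with higher mutant values varied together. The correlation of Jon25Bi was 0.97 with Jon66Ci, 0.91 with Jon25Bii, 0.79 with Jon25Biii and 0.79 with Jon65Aiii, and the lowest r among these 5 was 0.62, between Jon25Biii and Jon65Aiii. Jon44E ran against them, with r of -0.94 with Jon66Ci, -0.93 with Jon65Aiii, -0.92 with Jon25Bi, -0.79 with Jon25Bii and -0.72 with Jon25Biii. The 6 arrays share 2 genotypes and 3 replicate numbers, so a shared difference between the genotypes alone gives values of this size, and they are a description.

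Of 8178 other genes above background on average, those with the profile most like Jon44E over the 6 arrays were MFS15, a major facilitator transporter (r = 0.998), Srp14, a subunit of the signal recognition particle (0.997), the translation factor gene eIF5B (0.996), ReepB, an endoplasmic reticulum membrane protein of the REEP family (0.995), and Yip1d1, a Yip1-domain protein (0.995). MFS15 came closest in size too. It read 9.11, 9.62 and 8.65 in wild type and 7.25, 7.68 and 7.30 in the mutants, a difference of -1.72 (SE 0.26). ReepB differed by -0.88 (SE 0.13), Srp14 by -0.67 (SE 0.13), Yip1d1 by -0.64 (SE 0.11) and eIF5B by -0.31 (SE 0.08). These differences are a description, since likeness to Jon44E chose the genes. All 5 had replicate 2 highest in both genotypes, as Jon44E had. An r over 0.9 with Jon44E was found for 414 of the 8178 genes.

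The profiles most like Jon25Bi were those of CG10799 (r = 0.996), Ag5r, an antigen 5-related gene (0.996), CG11131 (0.995), the serpin gene Spn28Da (0.994) and CG8157 (0.994). Serpins are inhibitors of serine proteases. The 5 genes were picked by likeness to a member that is higher in the mutants, so their direction is no finding, but their sizes differed greatly. Ag5r differed by 0.65 (SE 0.08), almost as Jon25Bi, CG11131 by 1.24 (SE 0.11) and CG8157 by 1.83 (SE 0.10). CG10799 was at least 3.68-fold higher and Spn28Da at least 56.2-fold, both as bounds against the highest Tag controls. Both lay within these controls on all wild-type arrays and entered the comparison through their mutant values, so their r rests on wild-type values that are background. Ag5r and CG11131 had wild-type means of 5.07 and 4.89, under the highest Tag control of 5.28, so they too entered through their mutant values. They lay above the Tag controls on 2 and 1 of the 3 wild-type arrays, so their differences do not measure how much transcript was gained. An r over 0.9 with Jon25Bi was found for 338 of the 8178 genes.

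**Figure D4:**
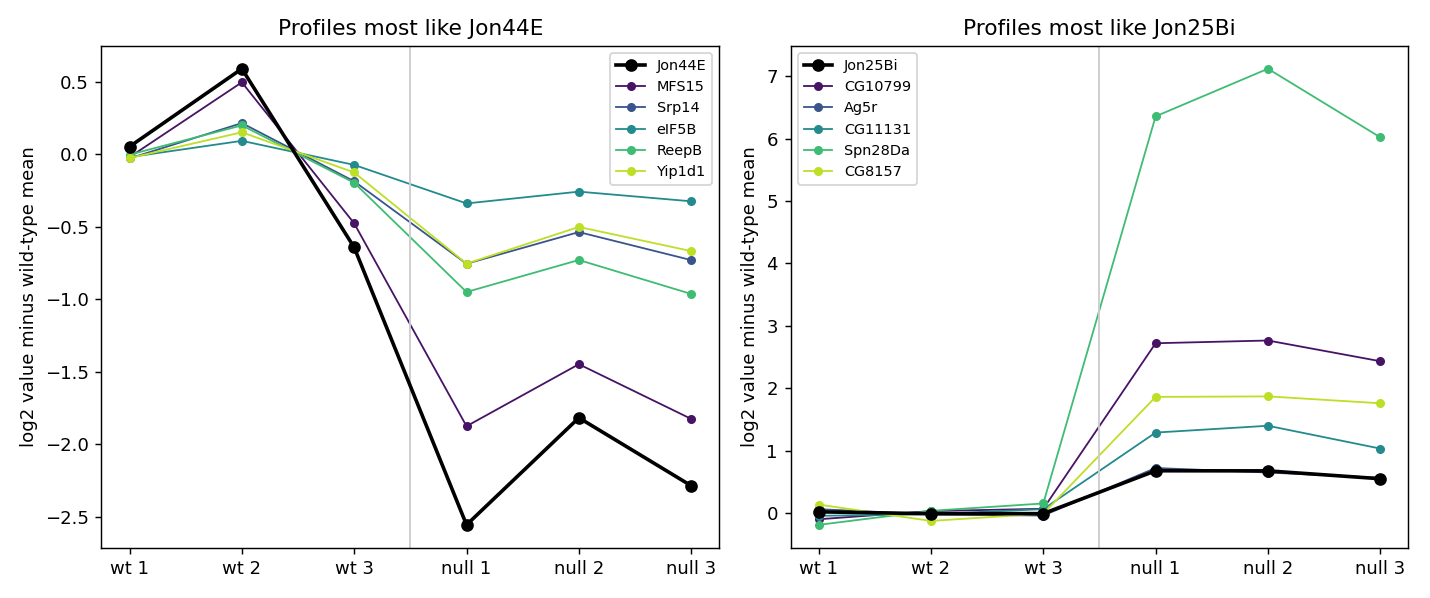
The 6 arrays (x axis, wild type 1 to 3, then CrebA null 1 to 3) are plotted against the log2 value minus the wild-type mean of each gene (y axis), for Jon44E (left) and Jon25Bi (right) in black and the 5 genes with the highest r to each in colour. On the left the genes share the high replicate 2 in both genotypes with differences of -0.31 to -1.72, smaller than the -2.22 of Jon44E, and on the right Spn28Da exceeds the others by far.

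Other genes of digestion were set beside the family from 7 lists written with earlier results of these data known. Of 56 measured genes, 3 were called higher and 2 lower at an adjusted p under 0.05, where 1.9% and 1.02% of 11982 genes were. With the replicate block 11 were called higher, where 12.6% of genes were, and 2 lower, where 9.21% were. Differences were positive for 36 of the 56 genes (64.3%) against 45.5% of all genes, with a median of 0.09 against -0.021. Among the 56, 4 Jonah-like genes, 4 carbohydrases, 3 peritrophic matrix genes, 1 lysozyme and 1 lipase lay within the Tag controls on all 6 arrays. The signs of these genes are counted but hold no measured change. In the 6 fits that each left out 1 array, mex1 was called in 6, alphaTry in 2, LysX in 1 (without wild type replicate 2) and Lip1 and Mal-A8 in 0, and the counts were 0 to 1 higher and 1 to 2 lower. These lists were not tested as sets. Adjusted p-values given below for genes of these lists and for markers are a description, like the member values.

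Of 8 other Jonah and Jonah-like protease genes, none was called higher or lower with limma, with or without the block, and 4 lay within the Tag controls on all 6 arrays. The median difference was 0.08. Jon99Fi read 3.81, 3.12 and 3.86 in wild type and 4.22, 4.97 and 4.31 in the mutants. Its ranges did not overlap, but 5 of these 6 values lay within the Tag controls, so no fold is given. Jon99Ci and Jon65Aii differed by 0.18 (SE 0.14) and 0.05 (SE 0.11). The genes of this list with the highest means were yip7, given above, and Jon99Ci.

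Of 10 measured trypsin genes, which encode another class of midgut serine proteases, 1 was called higher and none lower, 4 were higher with the block, and 9 of the 10 differences were positive (median 0.35). The called gene, alphaTry, read 5.92, 5.88 and 6.18 in wild type and 7.33, 7.50 and 6.99 in the mutants. All 3 mutant arrays lay above the wild-type arrays, with a difference of 1.28 (SE 0.16, limma adjusted p 0.0214). Those called higher with the block only were kappaTry (0.63, SE 0.17), lambdaTry (0.37, SE 0.12) and iotaTry, which lay within the Tag controls on all wild-type arrays and 1 mutant array, so that no size is given.

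Of 16 digestive carbohydrase genes 1 was called higher, and 5 with the block (median 0.11). This gene, the maltase gene Mal-A8, had a difference of 0.54 (SE 0.08, limma adjusted p 0.0375), but 5 of its 6 values lay within the Tag controls, and no fold is given. Its relatives Mal-A2 and Mal-A3 had differences of 1.08 (SE 0.24) and 0.58 (SE 0.17) and were called with the block. So were Mal-B1 (0.52, SE 0.34) and LManV (0.47, SE 0.42), whose values overlapped between the genotypes. Of 5 gut lipase genes 1 was called higher, Lip1, which rose from 9.18 ± 0.19 to 10.14 ± 0.18 (SD, n = 3 each, limma adjusted p 0.0302). Of 5 genes listed for the peritrophic matrix, the chitin-bound lining of the midgut, none was called higher or lower without the block. In which tissue of these embryos they were expressed was not tested. Of these, 3 lay within the Tag controls on all 6 arrays. The brightest genes of this list were Peritrophin-A and Peritrophin-15a, with differences of 0.70 (SE 0.22) and -0.10 (SE 0.09), and Peritrophin-A was called higher with the block.

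Falls beside that of Jon44E were seen in 2 of these lists. Of 3 lysozyme genes with a probe set of their own, LysX was called lower and none higher. It read 6.07, 6.73 and 6.40 in wild type and 4.86, 5.04 and 5.09 in the mutants, a difference of -1.40 (SE 0.18, limma adjusted p 0.0230). As in Jon44E, all mutant arrays lay below all wild-type arrays and above their own Tag controls. These controls reached 4.81, 4.93 and 4.71 on mutant arrays 1, 2 and 3, so LysX lay closer to background there than Jon44E. Part of its mutant signal may be background, and its difference does not measure how much transcript was lost. Of 9 midgut fate and enterocyte genes, mex1 was called lower, from 11.42 ± 0.31 to 7.58 ± 0.33 (SD, n = 3 each, limma adjusted p 0.00429), and the others were not called (median of the list -0.13).

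**Figure D5:**
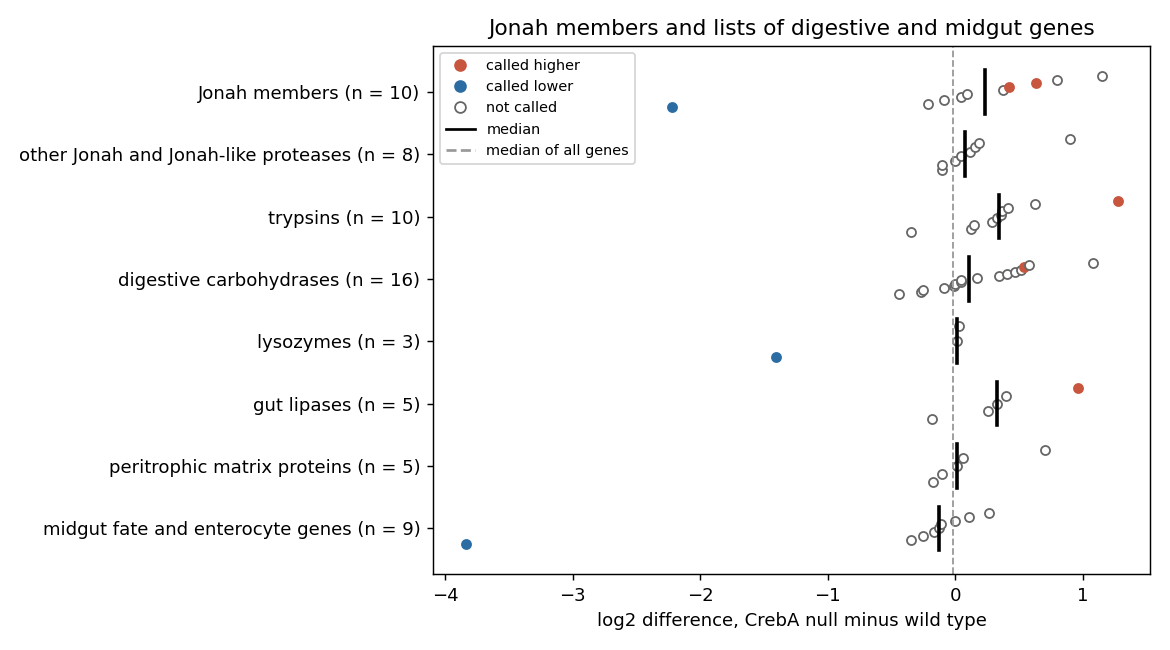
Each point is a gene's log2 difference, CrebA null minus wild type (x axis), for the 10 Jonah members and 7 lists (rows). Filled points were called at an adjusted p under 0.05, black bars are the medians of a row and the dashed line the median of all genes (-0.021). Jon44E, LysX and mex1 are the 3 points below -1, while most trypsins lie to the right of the dashed line.

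Midgut markers did not all move one way. Of 6 markers, 5 had a probe set of their own, and all 5 were above the Tag controls on every array. The endoderm GATA factor genes GATAe and srp had differences of -0.11 (SE 0.25) and 0.11 (SE 0.38), and betaTry one of 0.28 (SE 0.14), beside alphaTry and mex1 as given. The mean level of the 5 markers was 8.10 to 8.43 on wild-type arrays and 7.72 to 7.90 on mutant arrays. Without mex1 it was 7.18 to 7.71 and 7.66 to 8.003. Of the marker lists for other tissues, 5 of 5 salivary gland markers had negative differences (median -0.43) and 3 of 3 muscle markers positive ones (median 0.55). None of them was called without the block, and with it 3 salivary gland markers were called lower and 2 muscle markers higher. In the salivary gland list sage differed by -0.97 (SE 0.18), PH4alphaSG1 by -0.62 (SE 0.19) and eyg by -0.43 (SE 0.11). There fkh (-0.25, SE 0.23) was close to its SE, and PH4alphaSG2 (-0.0097, SE 0.32) showed no direction. The muscle differences were 0.39 (Mlc1, SE 0.12), 0.55 (Tm2, SE 0.26) and 0.97 (bt, SE 0.95). Of 3 fat body markers Mtp, a lipid transfer gene, was called lower (-1.04, SE 0.18, limma adjusted p 0.0493). The others, apolpp (0.12, SE 0.55) and Fbp1 (-0.24, SE 0.08), were not called. Both tracheal markers had negative differences (median -0.33), and no marker of tracheae, neurons, epidermis or Malpighian tubules was called without the block. With the block, the tracheal marker rib (-0.37, SE 0.19) was called lower. The Malpighian tubule marker byn (0.33, SE 0.13) and the epidermal marker Cpr47Ea (1.03, SE 0.39) were called higher. Cpr47Ea lay above the Tag controls on only 1 wild-type array. The part of these tissues in the Jonah differences was not tested.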

How the data were processed

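The deposited values are RMA expression values, read as log2 from their range of 2.81 to 14.53. The tools named are RMA and Partek, per the submitters' processing notes, and their versions, their order and any filter stay unknown, being not given in the sources used here. Each of the 6 columns served as 1 sample. Of 18952 probe sets, 183 Affymetrix controls were left out. Names came from the platform annotation (13647 probe sets with 1 gene symbol, 402 with several, 4720 with none), and a gene in a list was represented by its probe set with the highest mean (11982 genes). Of 104 list and marker entries 84 matched by symbol, 19 had no probe set with 1 gene symbol, and 1, Jon43E, is an older name of Jon44E and was left out.

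The contrast CrebA null minus wild type was fitted in R 4.3.3 with limma 3.58.1 (lmFit, then eBayes), two-sided. The p-values of 18769 probe sets were adjusted by Benjamini and Hochberg, and a call needed an adjusted p under 0.05. A value at or below the highest Tag control of its array was read as background, and where all 3 arrays of a genotype were, the fold is a bound, computed against the mean of these highest controls. Named were all members, up to 4 called genes of a list in each direction or its 2 brightest where none was called, and the 5 genes with the highest r to Jon44E and Jon25Bi; genes called only with the block, the neighbours in the genome, Jon99Fi and Jon65Aii were added after the values were seen. The members, lists and rules were chosen with earlier results of these data known. Sequence comparisons that had been planned were not made, since no sequences were used here.

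The titles give both genotypes the replicate numbers 1 to 3. Once the mean of each genotype was removed, same-numbered arrays correlated across probe sets (r = 0.639, 0.852 and 0.563, all over the bar of 0.1), so a fit with the number as a block was run. Crossed arrays 1 and 3 correlated too (0.566 and 0.371), so these values do not settle how 1 and 3 pair. On simulated arrays with independent noise of this comparison and 18769 probe sets, the same fit called 54 of 66 planted 4-fold changes, 35 of 67 planted 2-fold and 21 of 67 planted 1.5-fold ones, besides 7 probe sets with none. The deposited arrays share variation by replicate number, which the simulated arrays lack, so these rates need not hold for them. Plots came from python 3.11.15 and matplotlib 3.10.9.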

Additional observations from a re-analysis of the deposited data

How the results depend on the processing

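The difference of Jon44E stayed between -2.54 and -1.92 and that of Jon25Bi between 0.57 and 0.68 in all fits, and both were called in all 9 alternatives that kept their arrays or dropped replicate 2 of both genotypes. Of the 6 fits without 1 array, each was called in 1. The counts depend on the variance model, on scaling and on single arrays, and the cause was not tested. Jonah probe sets called higher numbered 1 instead of 2 under the filter on dim probe sets, median centring, quantile normalization, centring on ribosomal protein genes, the trended robust prior, and without replicate 2 of both genotypes (added after seeing the data). They numbered 3 with array weights and 4 with the replicate block. Over the whole array, where 267 probe sets were called higher and 171 lower, the counts were 1335 and 1109 with array weights, 1788 and 1342 with the replicate block, 535 and 359 at an adjusted p under 0.10, and 581 and 424 without replicate 2. Centring on ribosomal protein genes called 266 lower, so that 44.1% of calls were higher instead of 61.0%. List genes called higher were 8 with array weights and 11 with the block, and those called lower 4 with array weights. The block changed no other count by over 1.5 times. Without 1 array, Jonah probe sets called ranged from 0 to 1 higher and 0 to 1 lower, all probe sets from 23 to 159 higher and 15 to 121 lower, and list genes from 0 to 1 higher and 1 to 2 lower. The lowest counts over the whole array came without wild type replicate 1 (higher) and CrebA null replicate 1 (lower). Signs turned for Jon65Ai (-0.0207 with median centring, -0.0016 on ribosomal protein genes, -0.0424 with array weights, -0.0195 without replicate 2 of both genotypes, and -0.0156 to 0.0781 without 1 array), Jon65Aiv (-0.608 to 0.0168 without 1 array) and Jon66Cii (-0.217 to 0.0512 without 1 array). Low signal over background limits Jon65Ai and, in wild type, Jon25Bi.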
